A study of Mus musculus with 8 samples.

Results

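The 32 genes described here encode glucose carriers, the enzymes of glycolysis, the lactate dehydrogenases, the lactate carriers, and enzymes of the pentose phosphate and galactose pathways. They were listed by name and function, without use of measured values, and all 32 had a line among the 33898 genes of the deposited table of values per library. One of them, Pkm, stood under its older symbol Pkm2. The RNA came from mouse T helper 1 (Th1) cells, the CD4 T cells that make interferon gamma, in an RNA-seq study that set a knockdown of Pcbp1 against a control hairpin and an iron chelator against its solvent. Pcbp1 encodes an RNA-binding protein of the poly(C)-binding family, which also delivers iron to other proteins.

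Each of the 4 groups held 2 libraries of C57BL/6 CD4 T cells that had been activated with plate-bound antibodies to CD3 and CD28 and kept under Th1 conditions, that is with 2 ng/ml of IL-12 and 5 µg/ml of an antibody against IL-4. Cells of the Pcbp1 hairpin group were transduced with a short hairpin against Pcbp1, and cells of the scrambled hairpin group with a hairpin of scrambled sequence. Cells of the CPX group were treated with the iron chelator ciclopirox olamine (CPX), and cells of the DMSO group with the solvent DMSO. The knockdown libraries were made from total RNA depleted of ribosomal RNA, and the CPX and DMSO libraries from polyA RNA. The labels state neither the sequence and number of the hairpins, nor the dose and time of CPX, nor whether the libraries of a group came from separate mice or cultures. All p-values therefore measure the spread between these samples, which may be technical. Fewer cells of a type and less RNA per cell cannot be told apart in such bulk samples.

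Glycolysis takes glucose through phosphorylated hexoses and trioses to pyruvate and yields ATP and NADH. Lactate dehydrogenase turns pyruvate into lactate and gives back NAD, and monocarboxylate carriers move the lactate out. The pentose phosphate pathway branches off at glucose-6-phosphate and yields NADPH and ribose phosphate for nucleotides. Activated T cells are known to raise glucose uptake and glycolysis, and several of these genes are known targets of the hypoxia-inducible factors and of MYC. Hypoxia-inducible factors are marked for destruction by enzymes that need oxygen and iron.

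Promoters are shown for 5 of the genes because their RNA levels moved in each of the ways described further on, together or apart in the 2 experiments. The sequences are those of RefSeq on GRCm38.p6, cover 250 bases before to 50 bases after a gene's start, and are written 5′ to 3′ on the gene's strand. Capitals mark the letters ACGTG and GCGTG, the core letters of the hypoxia response element, read on either strand (so also CACGT and CACGC). Hk2 lies on the minus strand at chr6:82774405-82774704, Hk1 on the minus strand at chr10:62340372-62340671, Gpi1 on the minus strand at chr7:34230287-34230586, Slc16a1 on the plus strand at chr3:104638414-104638713 and Galk1 on the minus strand at chr11:116012670-116012969. Hk1 has 2 starts in that table, and the one with the letters is shown.
Hk2: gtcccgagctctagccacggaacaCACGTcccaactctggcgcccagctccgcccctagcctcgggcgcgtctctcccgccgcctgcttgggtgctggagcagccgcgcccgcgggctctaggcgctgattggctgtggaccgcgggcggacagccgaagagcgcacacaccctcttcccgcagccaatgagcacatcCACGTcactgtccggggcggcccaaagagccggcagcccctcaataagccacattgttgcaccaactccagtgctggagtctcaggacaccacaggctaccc
Hk1: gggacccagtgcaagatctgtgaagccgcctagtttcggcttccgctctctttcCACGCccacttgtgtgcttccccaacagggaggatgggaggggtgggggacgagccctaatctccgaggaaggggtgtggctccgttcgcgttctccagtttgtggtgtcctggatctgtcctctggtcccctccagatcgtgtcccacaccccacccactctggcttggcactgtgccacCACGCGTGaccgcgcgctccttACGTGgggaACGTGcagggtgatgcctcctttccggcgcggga
Gpi1: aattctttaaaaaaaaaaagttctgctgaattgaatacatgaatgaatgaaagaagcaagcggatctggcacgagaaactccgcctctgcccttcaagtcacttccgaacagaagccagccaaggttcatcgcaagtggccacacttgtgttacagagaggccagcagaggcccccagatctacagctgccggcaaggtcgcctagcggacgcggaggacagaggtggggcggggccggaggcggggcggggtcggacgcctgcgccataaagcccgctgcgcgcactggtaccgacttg
Slc16a1: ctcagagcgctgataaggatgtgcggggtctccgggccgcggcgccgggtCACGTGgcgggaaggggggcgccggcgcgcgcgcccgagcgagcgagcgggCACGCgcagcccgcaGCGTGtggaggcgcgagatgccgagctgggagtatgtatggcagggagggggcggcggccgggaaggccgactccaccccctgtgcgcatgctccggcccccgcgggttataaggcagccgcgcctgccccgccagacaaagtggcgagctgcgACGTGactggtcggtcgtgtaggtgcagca
Galk1: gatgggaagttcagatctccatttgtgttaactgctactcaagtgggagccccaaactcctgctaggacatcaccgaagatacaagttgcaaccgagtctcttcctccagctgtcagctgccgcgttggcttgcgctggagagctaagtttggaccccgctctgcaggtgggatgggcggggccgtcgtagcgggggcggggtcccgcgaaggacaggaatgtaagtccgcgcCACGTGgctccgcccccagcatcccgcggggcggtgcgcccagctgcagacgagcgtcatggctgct

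The Hk2 promoter held ACGTG 2 times and no GCGTG, the shown Hk1 promoter held ACGTG 2 times and GCGTG 3 times, and the Gpi1 promoter held neither. Slc16a1 had ACGTG 3 times and GCGTG 2 times, and Galk1 had ACGTG 2 times. The E-box CACGTG, which MYC and its partners bind, stood 1 time in the promoter of Slc16a1 and 1 time in that of Galk1. It reads the same on both strands and contains ACGTG, so each E-box also counts as 2 of the ACGTG matches. Of the 31 listed genes with a RefSeq promoter (all but Slc2a3), 26 held ACGTG or GCGTG in at least 1 promoter (83.9%), against 46.7% of 27025 genes with a promoter and 67.1% of 10143 genes that also had values in the libraries. ACGTG alone stood in 16 of the 31 (51.6%, against 29.4% of the genes with values), GCGTG alone in 19 (61.3%, against 55.6%) and CACGTG in 4 (12.9%, against 11.8%). These are counts of letters and not of bound sites.

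The knockdown libraries held 14174293 to 15518303 reads in genes, and the CPX and DMSO libraries 19193784 to 19662145 units of a rescaled count. Levels are given as RPM, reads per 1e+06 of a library's own total. Gene labels of the deposited table were displaced from 1 constant line on, and each line was given back its gene by the mean level that the authors' tables of comparisons list for it: 7208 of 7208 matched lines before that line carried their own label, and 7246 of 7247 after it carried another gene's. After this, Pcbp1 itself stood at 15.1 and 16.1 RPM in Pcbp1 hairpin libraries, against 44.0 and 51.7 RPM in scrambled hairpin libraries, and at 238 and 199 RPM with CPX, against 506 and 538 RPM with DMSO. All 9 of 9 T cell markers had values in every library. Ifng (interferon gamma) had 24818 and 18990 RPM in Pcbp1 hairpin libraries, against 50383 and 40954 RPM in scrambled hairpin libraries. Cd3d, Cd3g and Stat4 were lower too. Cd4 was higher, with 89.1 and 106 RPM in Pcbp1 hairpin libraries, against 42.8 and 55.4 RPM in scrambled hairpin libraries. Cd3e, Tbx21 and Il12rb2 were also higher, and Cxcr3 overlapped. Summed markers of CD8 T cells (Cd8a and Cd8b1) were 92.0 and 11.6 RPM in Pcbp1 hairpin libraries and 90.5 and 11.9 RPM in scrambled hairpin libraries, so that they stood apart by replicate and not by group.

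A gene was tested when it reached 1 RPM in 2 or more of an experiment's 4 libraries, and was called at an adjusted p under 0.05. Of the 32 genes, 31 passed this filter in either experiment. Hk3, a hexokinase of myeloid cells, did not: it had 0.0644 and 0.21 RPM in Pcbp1 hairpin libraries, against 0.0706 and 0 RPM in scrambled hairpin libraries.

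In Pcbp1 hairpin cells, RNA of 15 of the 31 tested genes rose and RNA of 4 fell relative to scrambled hairpin cells, while 12 were not called. As shares these were 48.4% and 12.9%, against 29.3% of all tested genes that rose and 26.7% that fell (56% in either direction; edgeR quasi-likelihood test with Benjamini-Hochberg adjustment). The median log2 fold change of the 31 genes was 0.25, against 0.00 for all 11575 genes tested. All but 1 of the genes that fell belonged to the pentose phosphate and galactose steps. Groups did not overlap in RPM for 18 genes that were higher in Pcbp1 hairpin libraries and 6 that were lower, where 45.8% and 32.7% of all tested genes did so (78.5% in either direction).

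Among the glucose carriers, Slc2a3 (GLUT3, the carrier of high affinity) rose and Slc2a1 (GLUT1) was not called. Slc2a3 had 80.7 and 75.0 RPM in Pcbp1 hairpin libraries, against 44.9 and 39.6 RPM in scrambled hairpin libraries, a log2 fold change of 0.77 ± 0.087 (SE; adjusted p = 2.32e-04, edgeR). Slc2a1 had 49.6 and 48.7 RPM in Pcbp1 hairpin libraries, against 38.7 and 44.6 RPM in scrambled hairpin libraries. Its groups did not overlap, but the log2 fold change of 0.13 ± 0.098 was within the spread of the test (adjusted p = 0.285, edgeR).

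Both tested hexokinases, which phosphorylate glucose and so trap it in the cell, rose more than 2-fold. Hk2, the inducible form, had 140.5 and 133 RPM in Pcbp1 hairpin libraries, against 49.5 and 47.7 RPM in scrambled hairpin libraries (log2 fold change 1.38 ± 0.065, adjusted p = 1.13e-05, edgeR). Hk1, the form made in most tissues, had 31.1 and 36.6 RPM in Pcbp1 hairpin libraries, against 9.31 and 10.3 RPM in scrambled hairpin libraries (log2 fold change 1.68 ± 0.13, adjusted p = 4.99e-05, edgeR). The replicates of each group lay close together for both genes.

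Of the 6 genes that carry hexose phosphates to the aldolase step, 4 rose and none fell. Gpi1, which turns glucose-6-phosphate into fructose-6-phosphate, rose by more than any other listed gene: it had 112 and 118 RPM in Pcbp1 hairpin libraries, against 23.6 and 27.2 RPM in scrambled hairpin libraries, a 4.20-fold change (log2 2.07 ± 0.093, adjusted p = 9.93e-06, edgeR). The phosphofructokinases commit fructose-6-phosphate to glycolysis. Pfkp, the platelet form, had 306 and 252 RPM in Pcbp1 hairpin libraries, against 115 and 113 RPM in scrambled hairpin libraries (log2 1.18 ± 0.090, adjusted p = 4.38e-05, edgeR). Pfkl, the liver form, had 66.4 and 69.2 RPM in Pcbp1 hairpin libraries, against 31.5 and 32.2 RPM in scrambled hairpin libraries (log2 0.98 ± 0.082, adjusted p = 6.11e-05, edgeR). Aldoa, the aldolase that splits fructose bisphosphate into trioses in most cells, had 775 and 800.1 RPM in Pcbp1 hairpin libraries, against 367 and 406 RPM in scrambled hairpin libraries (log2 0.92 ± 0.079, adjusted p = 6.99e-05, edgeR). The muscle form Pfkm and the brain form Aldoc stayed under 4 RPM in every knockdown library and were not called.

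Along the triose part of the pathway, 3 of 9 genes rose and none fell. Eno1, the enolase of most tissues, had 87.1 and 83.4 RPM in Pcbp1 hairpin libraries, against 35.1 and 38.3 RPM in scrambled hairpin libraries (log2 1.11 ± 0.080, adjusted p = 3.65e-05, edgeR). Pkm, the pyruvate kinase that makes the last ATP of the pathway, had 1775 and 1800.2 RPM in Pcbp1 hairpin libraries, against 1088 and 1276 RPM in scrambled hairpin libraries (log2 0.49 ± 0.099, adjusted p = 0.00413, edgeR). Gene counts do not tell its M1 and M2 splice forms apart. Bpgm, which makes and removes bisphosphoglycerate, had 15.3 and 17.4 RPM in Pcbp1 hairpin libraries, against 11.0 and 10.5 RPM in scrambled hairpin libraries (log2 0.50 ± 0.13, adjusted p = 0.0141, edgeR). The Bpgm call was lost without the second Pcbp1 hairpin library (adjusted p = 0.105), without the second scrambled hairpin library (0.0574) and with DESeq2 (0.0785).

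None of the genes that carry the trioses between aldolase and enolase was called. They all have near-identical pseudogenes to which reads can also map (Gapdh 172, Pgk1 4, Pgam1 3 and Tpi1 2). So do Aldoa (5), Eno1 (6) and Pkm (8), which were called. Gapdh had a mean of 12.9 RPM in scrambled hairpin libraries, against 1753 RPM with DMSO. Levels and fold changes of these genes are uncertain to that extent, and the part of the copies was not tested. Tpi1, which interconverts the trioses, had 141 and 114 RPM in Pcbp1 hairpin libraries, against 145 and 126 RPM in scrambled hairpin libraries (log2 -0.20 ± 0.11, adjusted p = 0.153, edgeR). It was called without the first Pcbp1 hairpin library (log2 -0.35, adjusted p = 0.0133). Gapdh, which makes the NADH of glycolysis, had 17.2 and 15.9 RPM in Pcbp1 hairpin libraries, against 12.5 and 13.3 RPM in scrambled hairpin libraries (log2 0.25 ± 0.12, adjusted p = 0.106, edgeR). With limma on log2(RPM + 0.5), where all genes had a median of 0.10, Gapdh was called at 0.35 (adjusted p = 0.0397). Pgk1, which makes the earlier ATP, had 35.7 and 42.7 RPM in Pcbp1 hairpin libraries, against 42.4 and 39.9 RPM in scrambled hairpin libraries (adjusted p = 0.218, edgeR), and was called without the second Pcbp1 hairpin library (log2 -0.34, adjusted p = 0.0402). Pgam1, the phosphoglycerate mutase, had 20.7 and 19.2 RPM in Pcbp1 hairpin libraries, against 20.3 and 19.6 RPM in scrambled hairpin libraries (adjusted p = 0.401, edgeR). The neuronal enolase Eno2 and the muscle enolase Eno3 were under 4 RPM in every knockdown library and were not called.

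At the lactate step, both carriers rose while Ldha, the dehydrogenase subunit that favours lactate, was slightly lower. Slc16a1 (MCT1) had 473 and 515 RPM in Pcbp1 hairpin libraries, against 202 and 208 RPM in scrambled hairpin libraries (log2 1.16 ± 0.073, adjusted p = 2.50e-05, edgeR). Slc16a3 (MCT4, a carrier suited to export) had 11.0 and 10.3 RPM in Pcbp1 hairpin libraries, against 5.86 and 7.68 RPM in scrambled hairpin libraries (log2 0.55 ± 0.18, adjusted p = 0.0315, edgeR). The Slc16a3 call was lost with DESeq2 (adjusted p = 0.124), without the first or the second Pcbp1 hairpin library (0.0891 and 0.0697) and without the first scrambled hairpin library (0.182). Ldha had 663 and 635 RPM in Pcbp1 hairpin libraries, against 719 and 672 RPM in scrambled hairpin libraries (log2 -0.21 ± 0.072, adjusted p = 0.0408, edgeR). Leaving out any 1 library ended the Ldha call (adjusted p between 0.0609 and 0.209), as did limma on log2(RPM + 0.5), where all genes had a median of 0.10 and Ldha a log2 fold change of -0.10 (adjusted p = 0.227). Ldhb, the subunit that favours pyruvate, had 0.967 and 1.61 RPM in Pcbp1 hairpin libraries, against 1.34 and 1.61 RPM in scrambled hairpin libraries, and was not called.

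The pentose phosphate and galactose genes went both ways, with 3 of 8 that rose and 3 that fell. G6pdx, the dehydrogenase that opens the pathway and sets its rate, had 33.8 and 34.4 RPM in Pcbp1 hairpin libraries, against 22.4 and 23.4 RPM in scrambled hairpin libraries (log2 0.47 ± 0.096, adjusted p = 0.00453, edgeR). Tkt, the transketolase that links pentoses back to glycolysis, had 557 and 548 RPM in Pcbp1 hairpin libraries, against 340.3 and 405 RPM in scrambled hairpin libraries (log2 0.46 ± 0.093, adjusted p = 0.00409, edgeR). Rpia, the isomerase that makes ribose-5-phosphate, had 70.2 and 67.3 RPM in Pcbp1 hairpin libraries, against 38.2 and 39.2 RPM in scrambled hairpin libraries (log2 0.72 ± 0.076, adjusted p = 1.84e-04, edgeR). Rpe works on the same substrate as Rpia and makes xylulose-5-phosphate from it. It went the other way, with 83.6 and 89.8 RPM in Pcbp1 hairpin libraries, against 113 and 118 RPM in scrambled hairpin libraries (log2 -0.52 ± 0.070, adjusted p = 5.40e-04, edgeR), and turned to 0.08 (adjusted p = 0.347) in limma with the trend of transcript length and GC content taken out. Taldo1, the transaldolase, had 57.0 and 54.0 RPM in Pcbp1 hairpin libraries, against 61.6 and 65.8 RPM in scrambled hairpin libraries (log2 -0.31 ± 0.077, adjusted p = 0.0116, edgeR). Its call was lost without the second scrambled hairpin library (adjusted p = 0.0672) and in limma on log2(RPM + 0.5) (0.0591).

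Galk1, the galactokinase, fell by more than any other listed gene. It had 25.1 and 23.9 RPM in Pcbp1 hairpin libraries, against 61.0 and 68.4 RPM in scrambled hairpin libraries, a 2.84-fold drop (log2 -1.51 ± 0.096, adjusted p = 2.60e-05, edgeR). The lactonase Pgls and the second NADPH-making dehydrogenase Pgd were not called. Pgd had 35.6 and 39.8 RPM in Pcbp1 hairpin libraries, against 30.3 and 28.6 RPM in scrambled hairpin libraries (log2 0.25 ± 0.10, adjusted p = 0.0743, edgeR). With limma on log2(RPM + 0.5), where all genes had a median of 0.10, Pgd was called at 0.35 (adjusted p = 0.0154). Without the first Pcbp1 hairpin library its log2 fold change was 0.35 in edgeR.

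**Figure D1:**
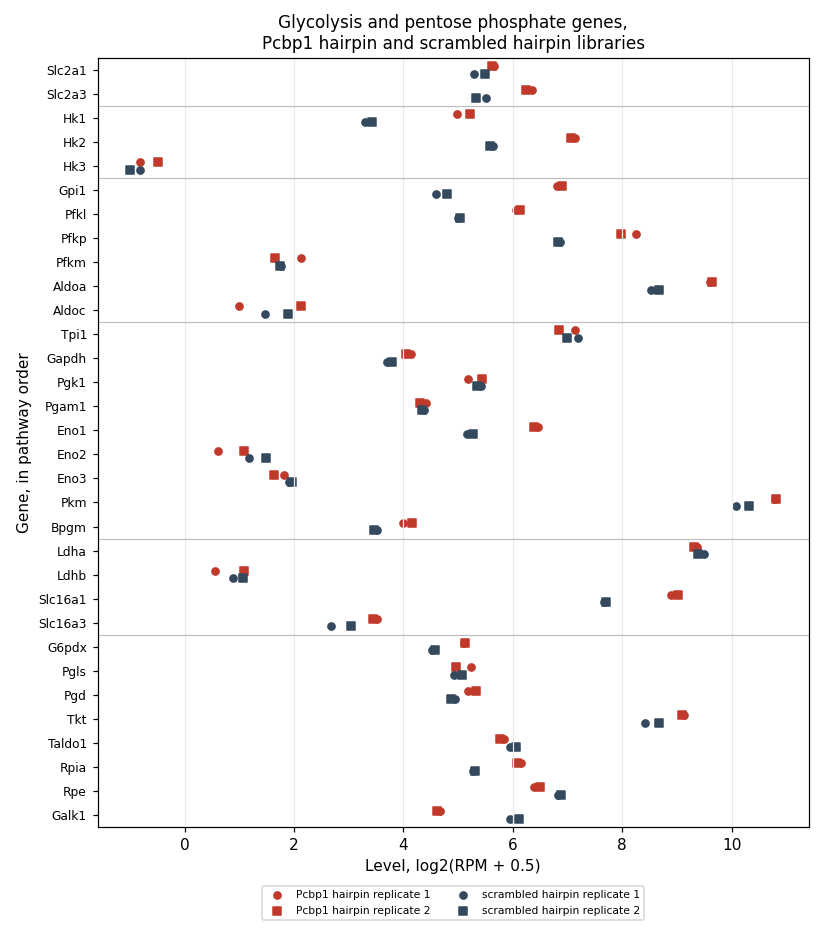
Level of each of the 32 genes as log2(RPM + 0.5) in the 2 Pcbp1 hairpin libraries (red) and the 2 scrambled hairpin libraries (dark blue), in pathway order, with circles for replicate 1, squares for replicate 2 and lines between the steps. The red points lie to the right for Hk1, Hk2, Gpi1, Pfkl, Pfkp, Aldoa, Eno1 and Slc16a1, and to the left for Galk1 and Rpe.

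With CPX, RNA of 4 of the 31 tested genes rose and RNA of 6 fell relative to DMSO, while 21 were not called. These shares were 12.9% and 19.4%, against 19.9% of all tested genes that rose and 24.8% that fell (44.7% in either direction; limma on log2(RPM + 0.5) with Benjamini-Hochberg adjustment, as for every CPX value here). The median log2 fold change of the 31 genes was 0.14, against -0.12 for all 11466 genes tested (0.26 and 0.00 with TMM scaling). Without Eno2, which passed the filter only through the CPX libraries, 3 of 30 rose and 6 fell, with a median of 0.12. Groups did not overlap in RPM for 8 tested genes that were higher with CPX and 7 that were lower, against 34.2% and 42.2% of all tested genes (76.3% in either direction), and they overlapped for 16. Of the 5 listed macrophage markers, Itgam and Emr1 had values, and their sum was 53.2 and 31.0 RPM with CPX, against 1.63 and 1.69 RPM with DMSO. The other 3 were near 0: the authors' deposited table gives them a mean signal of 1.77 (Csf1r), 4.05 (Cd14) and 0.259 (Lyz2), where Itgam has 757. Of the 3 dendritic cell markers, Itgax had 13.3 and 21.7 RPM with CPX, against 1.17 and 1.28 RPM with DMSO. Flt3 had 0.521 and 0.104 RPM with CPX, against 0.102 and 0.153 RPM with DMSO, and Xcr1 had 0.104 and 0.364 RPM with CPX, against 0 and 0.0512 RPM with DMSO. Summed T cell markers were 2308 and 5934 RPM with CPX, against 14874 and 25116 RPM with DMSO. Ifng, the gene of interferon gamma, made up 47.9% and 84.0% of the sum with CPX, against 94.3% and 94.8% with DMSO. Without Ifng the sums of the other 8 markers were 1202 and 951 RPM with CPX, against 848 and 1312 RPM with DMSO, which overlap. Cd4 (405 and 261 RPM with CPX, against 137 and 226 RPM with DMSO) and Cd3d (386 and 355 RPM with CPX, against 179 and 251 RPM with DMSO) were higher in both CPX libraries. Cd3e was lower in both, with 71.4 and 51.7 RPM with CPX, against 132 and 184 RPM with DMSO. So were Il12rb2 (24.1 and 31.1 RPM, against 69.4 and 172 RPM) and Cxcr3 (13.5 and 14.8 RPM, against 98.5 and 65.9 RPM). Stat4 was lower too, with 30.4 and 22.5 RPM with CPX, against 53.1 and 128 RPM with DMSO. Cd3g and Tbx21 overlapped. The part of other cell types in the values below was not tested.

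Of the glucose carriers, Slc2a3 rose and Slc2a1 was not called. Slc2a3 had 357 and 177 RPM with CPX, against 44.9 and 52.6 RPM with DMSO, a 5.13-fold rise on the log2(RPM + 0.5) scale (log2 2.36 ± 0.37, adjusted p = 0.00608, limma). The CPX libraries differed from each other by -1.01 on that scale (replicate 2 minus replicate 1), and both lay above the DMSO libraries. Slc2a1 had 95.7 and 396 RPM with CPX, against 108 and 234 RPM with DMSO, and its groups overlapped (adjusted p = 0.763, limma).

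The hexokinases moved in opposite directions. Hk2 fell to 40.9 and 95.2 RPM with CPX, against 264 and 329 RPM with DMSO, a 4.69-fold drop (log2 -2.23 ± 0.42, adjusted p = 0.0104, limma). Hk1 had 380.1 and 484 RPM with CPX, against 139.6 and 211 RPM with DMSO (log2 1.32 ± 0.27, adjusted p = 0.0139, limma). Hk3 had 0.417 and 1.14 RPM with CPX and was listed at 0 in both DMSO libraries. It did not pass the filter on low values, so no test was made.

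Gpi1 was the only gene called among the hexose phosphate and aldolase steps. It had 827 and 906 RPM with CPX, against 339.9 and 500.4 RPM with DMSO (log2 1.07 ± 0.24, adjusted p = 0.0184, limma). The phosphofructokinase Pfkp had 401 and 423 RPM with CPX, against 396 and 458 RPM with DMSO, which overlap (log2 -0.05 ± 0.19, adjusted p = 0.850, limma). Aldoa likewise had 1092 and 1449 RPM with CPX, against 958 and 1369.5 RPM with DMSO (adjusted p = 0.698, limma). Pfkl spread widely, with 34.9 and 178 RPM with CPX, against 72.3 and 269 RPM with DMSO.

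Between trioses and pyruvate, Eno2 was the only gene called of 9. It had 5.37 and 6.91 RPM with CPX, against 0.814 and 0.767 RPM with DMSO (log2 2.35 ± 0.30, adjusted p = 0.00396, limma), and it passed the filter on low values only through the CPX libraries, where it is high, so its p is no independent support. Pgk1 had 1116 and 1709.8 RPM with CPX, against 671 and 888 RPM with DMSO (log2 0.84 ± 0.28, adjusted p = 0.0565, limma). It passed the threshold with TMM scaling (adjusted p = 0.0333) and without the first CPX library (0.0288). Gapdh had 2356 and 2747 RPM with CPX, against 1404 and 2101 RPM with DMSO, and did not pass (log2 0.57 ± 0.26, adjusted p = 0.122, limma). Eno1 had 767 and 2028 RPM with CPX, against 385 and 846 RPM with DMSO, with groups that overlap (log2 1.13 ± 0.57, adjusted p = 0.155, limma). With the replicate number as a block, Eno1 (adjusted p = 0.000952), Pgk1 (0.00395) and Gapdh (0.0191) were called by limma. No label says what these numbers mean. Pkm had 2534 and 3651 RPM with CPX, against 2445 and 3454 RPM with DMSO, so that the replicates differed more than the groups.

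Tpi1 showed how far 1 library could set a value. It had 284 and 343 RPM with CPX, against 109.8 and 678 RPM with DMSO, and a log2 fold change of 0.19 ± 0.81 (adjusted p = 0.861, limma). Without the second DMSO library its log2 fold change was 1.504 (adjusted p = 0.0229), and without the first it was -1.12 (adjusted p = 0.0663). Leaving out the second DMSO library also gave calls for Eno1 (log2 1.69, adjusted p = 0.0282) and Slc16a3 (2.27, adjusted p = 0.0339).

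Of the 4 lactate genes, Slc16a1 alone was called, and it fell. It had 168 and 195 RPM with CPX, against 416 and 407 RPM with DMSO (log2 -1.19 ± 0.19, adjusted p = 0.00678, limma). Ldha had 997 and 937 RPM with CPX, against 988 and 1518 RPM with DMSO, and was not called (log2 -0.34 ± 0.26, adjusted p = 0.315, limma). Ldhb had 5.89 and 8.89 RPM with CPX, against 2.44 and 3.63 RPM with DMSO, and just missed the threshold (log2 1.15 ± 0.37, adjusted p = 0.0517, limma), which it passed with TMM scaling (0.0289) and without the first CPX library (0.0408). Slc16a3 had 36.6 and 151 RPM with CPX, against 15.1 and 108 RPM with DMSO, which overlap.

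The pentose phosphate and galactose genes fell in 4 of 8 cases and rose in none. Rpia had 31.6 and 38.2 RPM with CPX, against 108 and 103 RPM with DMSO (log2 -1.59 ± 0.23, adjusted p = 0.00508, limma). Rpe had 23.1 and 30.5 RPM with CPX, against 80.1 and 75.1 RPM with DMSO (log2 -1.53 ± 0.26, adjusted p = 0.00746, limma). Galk1 showed the largest change of the listed genes, with 10.8 and 6.13 RPM with CPX, against 75.8 and 94.9 RPM with DMSO, a 9.86-fold drop (log2 -3.30 ± 0.35, adjusted p = 0.00293, limma). In these 3 genes the groups lay far apart. Tkt had 438 and 344 RPM with CPX, against 634 and 644 RPM with DMSO (log2 -0.72 ± 0.20, adjusted p = 0.0352, limma), a call that was lost with TMM scaling (adjusted p = 0.0969). The oxidative enzymes were not called: G6pdx had 40.1 and 89.5 RPM with CPX, against 52.3 and 59.6 RPM with DMSO, and Pgd had 238 and 268 RPM with CPX, against 173 and 193 RPM with DMSO (adjusted p = 0.104, limma).

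Several CPX calls were lost when a particular library was left out, most often a DMSO library. Without the first DMSO library, Gpi1 (adjusted p = 0.162), Hk1 (0.0970), Rpe (0.0637), Slc16a1 (0.0653) and Tkt (0.218) were no longer called by limma. Without the second DMSO library, Slc16a1 (0.0543) and Tkt (0.222) were not called, and without the second CPX library Gpi1 was not (0.0513). Slc2a3, Hk2, Rpia and Galk1 were called under every omission of 1 library, and Eno2 under the omission of either DMSO library; without either CPX library Eno2 did not pass the filter. Some genes that were not called gained a call after an omission: G6pdx (log2 0.68, adjusted p = 0.0387), Pgd (0.55, 0.0472) and Pgls (-0.72, 0.0403) without the first CPX library, and Bpgm (-1.31, 0.0296) and Eno3 (1.23, 0.0321) without the second.

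**Figure D2:**
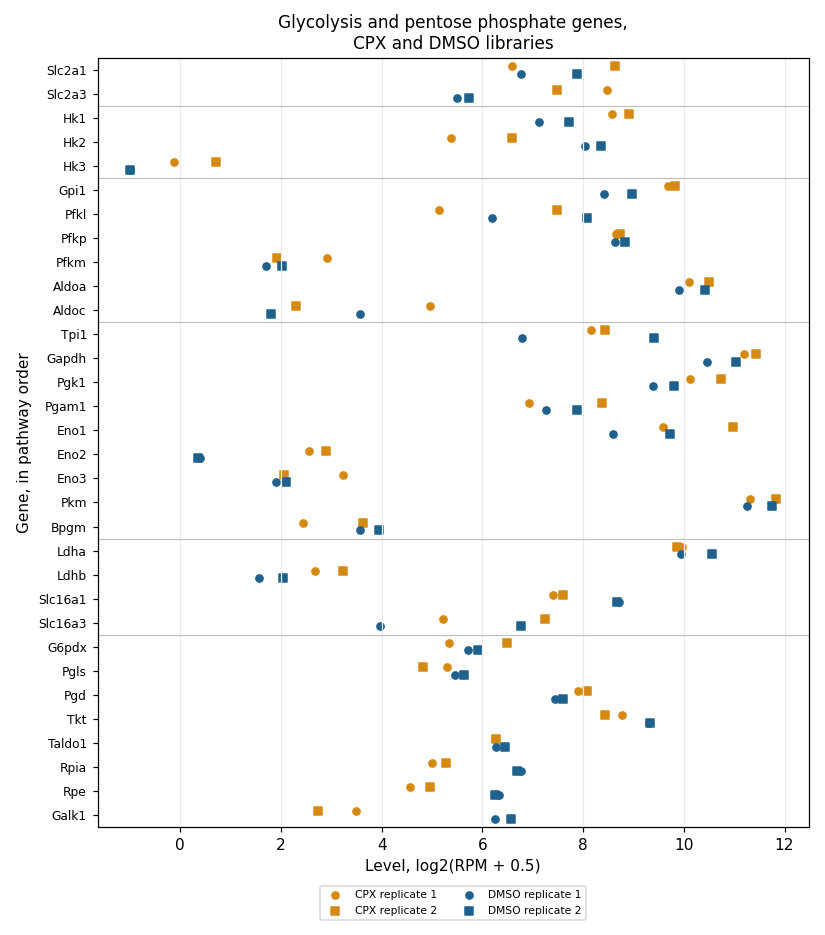
Level of each of the 32 genes as log2(RPM + 0.5) in the 2 CPX libraries (orange) and the 2 DMSO libraries (blue), in pathway order, with circles for replicate 1 and squares for replicate 2. The orange points lie to the right for Slc2a3, Hk1, Gpi1 and Eno2 and to the left for Hk2, Slc16a1, Rpia, Rpe and Galk1, and the replicates lie far apart for Slc2a1, Pfkl, Tpi1 and Slc16a3.

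Set side by side, the 2 experiments shared some directions and not others. Gpi1, Hk1 and Slc2a3 rose in both, and Galk1 and Rpe fell in both. Hk2, Rpia, Slc16a1 and Tkt rose in Pcbp1 hairpin cells and fell with CPX. No gene fell after the knockdown and rose with CPX. The 2 experiments have separate control libraries, but they differ in RNA selection, and the effect of that on a fold change cannot be told apart from the effect of the 2 treatments.

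The difference between the effects was tested in 1 limma fit of all 8 libraries, as the log2 fold change of Pcbp1 hairpin over scrambled hairpin minus that of CPX over DMSO. That fit takes 1 variance per gene over both experiments, although replicates spread more in the CPX experiment. For Slc16a1 the SE of the difference was 0.17, below the 0.19 of its CPX change alone. For Rpia these were 0.20 and 0.23, while for Hk2 the difference had the larger SE (0.49 against 0.42). The SE and p of a difference can therefore be too small. Of the 31 tested genes, 9 had a higher change in the knockdown and 3 a lower one (29.0% and 9.68%), against 35.2% and 16.1% of all 10430 genes tested (51.3% in either direction). The median difference was 0.24 for these genes, against 0.40 for all genes, so that positive values here must be read against a shift of all genes. TMM scaling lowered the median of all genes to 0.04 and that of the listed genes to -0.14. It gave 8 higher and 4 lower, with Aldoa lost (adjusted p = 0.139, limma).

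Hk2 had the largest difference of the listed genes, 3.71 ± 0.49 on the log2 scale (SE; adjusted p = 8.92e-04, limma). Slc16a1 followed with 2.45 ± 0.17 (adjusted p = 9.24e-05, limma) and Rpia with 2.41 ± 0.20 (adjusted p = 1.48e-04, limma). Each of these 3 rose in 1 experiment and fell in the other. Galk1 differed by 1.92 ± 0.37 (adjusted p = 0.00439, limma) and Rpe by 1.12 ± 0.23 (adjusted p = 0.00566, limma), since both fell more with CPX than after the knockdown. Tkt (1.29 ± 0.22), Pfkp (1.33 ± 0.20), Gpi1 (1.09 ± 0.27) and Aldoa (0.89 ± 0.29) were also higher in the knockdown. The change of Gpi1 differed although it rose in both experiments.

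On the other side, Slc2a3 differed by -1.48 ± 0.42 (adjusted p = 0.0222, limma) and Ldhb by -1.31 ± 0.44 (adjusted p = 0.0411, limma). Eno2 had a difference of -2.84 ± 0.37, but entered the CPX side of the test only through the CPX libraries, and without it 9 of 30 genes were higher and 2 lower. Hk1, which rose in both, differed by 0.42 ± 0.32, which did not pass (adjusted p = 0.305, limma). The calls of Slc2a3, Ldhb and Aldoa were lost when any of several single libraries was left out (Slc2a3 up to an adjusted p of 0.0773, Ldhb up to 0.1415, Aldoa up to 0.118), and that of Gpi1 without the second Pcbp1 hairpin library (0.0536) or the first scrambled hairpin library (0.0578). Pfkl (3.06, adjusted p = 0.0193), Eno3 (-1.45, 0.00497), Pkm (0.80, 0.0477), G6pdx (1.04, 0.00139) and Bpgm (1.89, 0.00113) were called without the second CPX library, Pgk1 (-1.22, 0.00487) and Pgls (0.83, 0.0119) without the first, Ldha (0.55, 0.0470) without the first DMSO library, and Pgk1 (-1.12, 0.0454) without the second. The calls of Hk2, Pfkp, Slc16a1, Tkt, Rpia, Rpe and Galk1 held under every omission of 1 library.

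**Figure D3:**
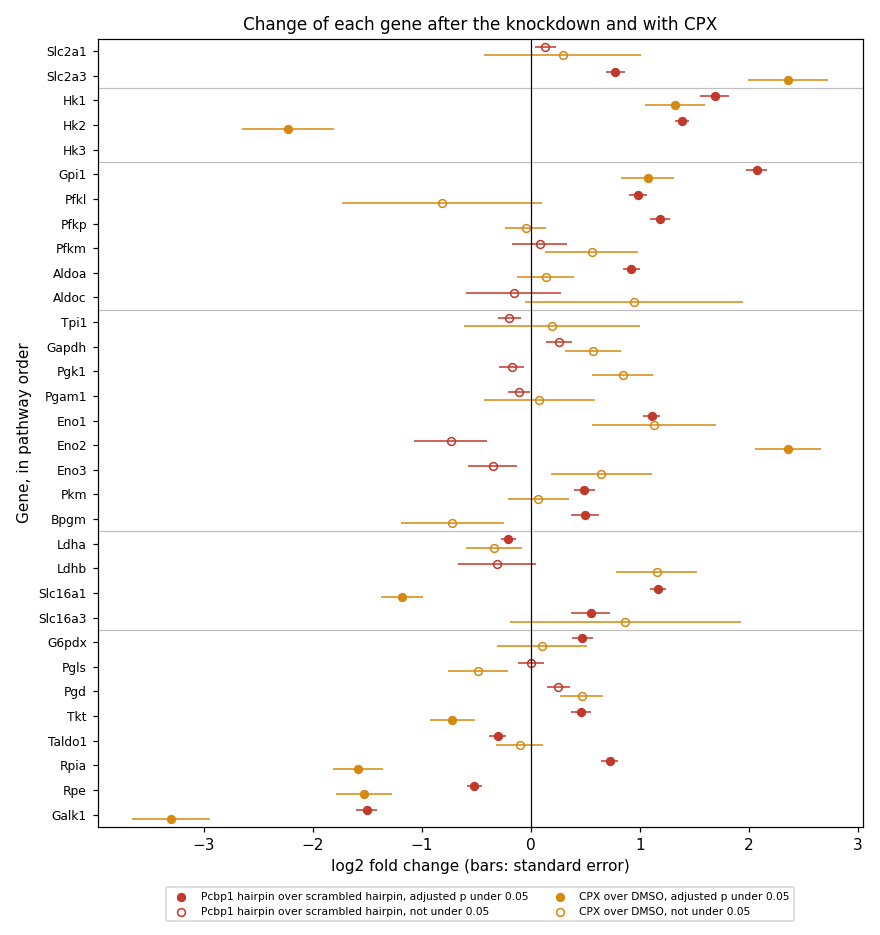
Log2 fold change of each gene, in pathway order, for Pcbp1 hairpin over scrambled hairpin (red) and CPX over DMSO (orange), with bars of 1 standard error and filled points for adjusted p under 0.05. Hk2 and Slc16a1 have filled points on opposite sides of 0, Gpi1 and Hk1 have both on the right, and Galk1 has both on the left.

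Where a step can be run by several isoenzymes, the balance between them was compared per kb of transcript in each library, as a log2 ratio. No test was made of these ratios; an exact permutation test of a single value over 2 libraries against 2 cannot go below a two-sided p of 0.333. The balance of Hk2 over Hk1 was -3.57 and -2.70 with CPX, against 0.55 and 0.27 with DMSO, so that Hk1 was the more abundant hexokinase per kb with CPX and Hk2 with DMSO. In the knockdown it was 1.79 and 1.48 in Pcbp1 hairpin libraries, against 1.98 and 1.80 in scrambled hairpin libraries. There Hk2 led in every library although both genes rose.

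Ldha exceeded Ldhb by 6.81 and 6.16 with CPX, against 7.92 and 8.04 with DMSO. In the knockdown the ratio was 8.34 and 7.76 in Pcbp1 hairpin libraries, against 8.13 and 7.84 in scrambled hairpin libraries, which overlap. Ldha thus made up nearly all RNA of the pair in each of the 8 libraries. Slc2a1 over Slc2a3 was -0.42 and -0.34 in Pcbp1 hairpin libraries, against 0.07 and 0.45 in scrambled hairpin libraries, and -1.61 and 1.44 with CPX, against 1.54 and 2.43 with DMSO. In both experiments the ratio was lower in each treated library than in either control library. With CPX, however, the second library (1.44) was still on the side of Slc2a1 and just under the first DMSO library (1.54). Eno1 over Eno3 was 4.26 and 4.39 in Pcbp1 hairpin libraries, against 2.88 and 2.93 in scrambled hairpin libraries. Slc16a3 over Slc16a1 was -5.34 and -5.54 in Pcbp1 hairpin libraries, against -4.97 and -4.64 in scrambled hairpin libraries. Pfkp over Pfkl was 2.04 and 1.71 in Pcbp1 hairpin libraries, against 1.70 and 1.64 in scrambled hairpin libraries. With CPX the ratios of Pfkp to Pfkl, Pfkm to Pfkl, Aldoa to Aldoc, Eno1 to Eno3 and Slc16a3 to Slc16a1 overlapped those with DMSO.

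**Figure D4:**
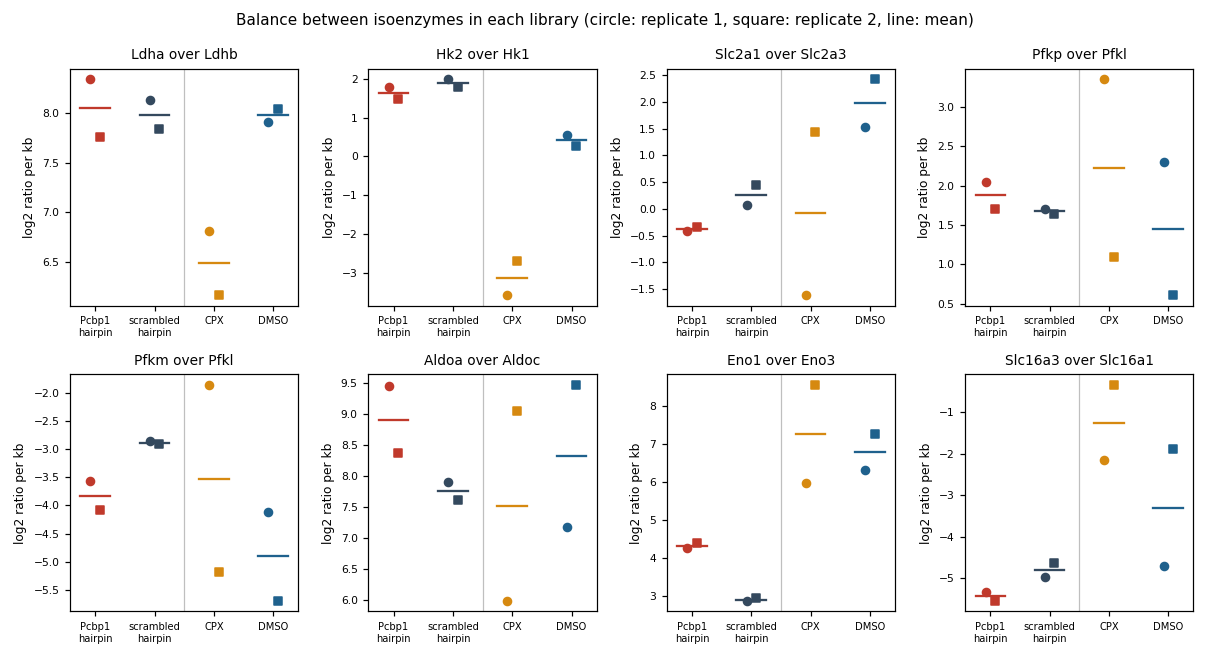
Log2 ratio per kb of transcript between 8 pairs of isoenzymes or carriers in each of the 8 libraries (Pcbp1 hairpin red, scrambled hairpin dark blue, CPX orange, DMSO blue; circles replicate 1, squares replicate 2, lines the mean; each panel has its own axis). The ratio of Hk2 to Hk1 lies below 0 in both CPX libraries and above 0 in the other 6.

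Replicates of the CPX experiment differed by more for these genes than those of the knockdown. The median absolute log2 difference between replicate 2 and replicate 1 was 0.53 with CPX and 0.38 with DMSO over the 31 genes, against 0.43 and 0.19 over all tested genes. In the knockdown it was 0.10 in Pcbp1 hairpin libraries and 0.10 in scrambled hairpin libraries, against 0.12 and 0.13 over all tested genes. Replicate 2 was higher in 23 of 31 genes with CPX and in 26 with DMSO, against 56.1% and 58.9% of all tested genes. It was higher in both for 19 genes, where 34.3% of all tested genes were higher in replicate 2 of both. In Slc16a3 replicate 2 exceeded replicate 1 by 2.03 with CPX and by 2.80 with DMSO, and in Pfkl by 2.33 with CPX and by 1.89 with DMSO. Aldoc had the opposite sign, -2.65 with CPX and -1.78 with DMSO. The labels do not say that equal replicate numbers share a culture or day.

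**Figure D5:**
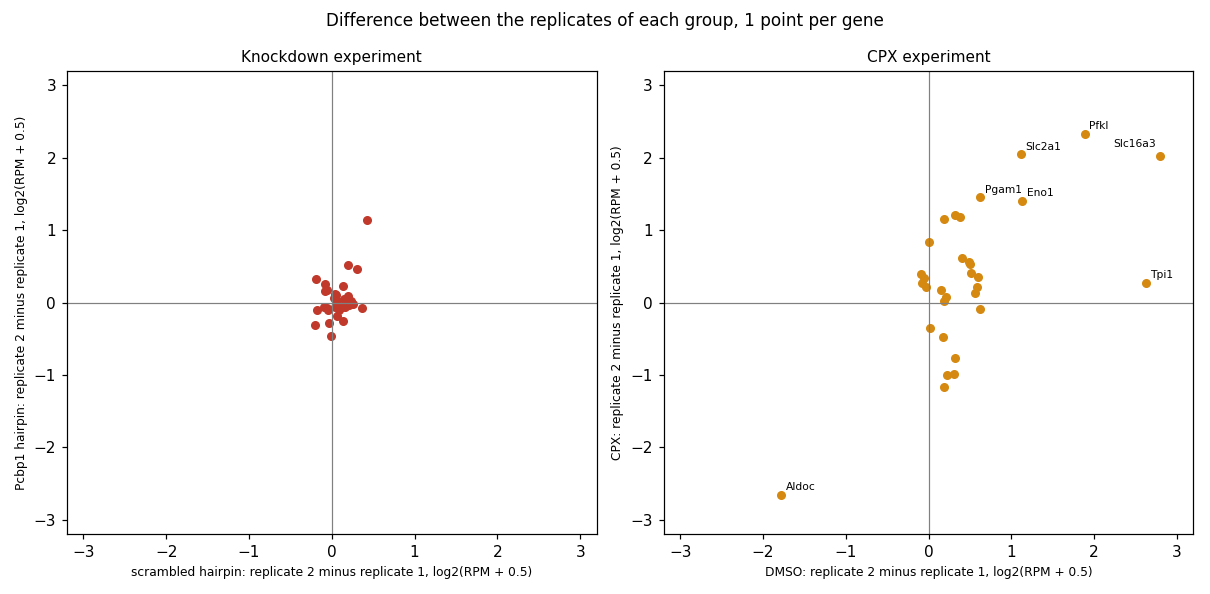
Replicate 2 minus replicate 1 on the log2(RPM + 0.5) scale, 1 point per gene, for Pcbp1 hairpin against scrambled hairpin (left) and CPX against DMSO (right), with both panels on the same axes. Points of the knockdown lie near 0, apart from Aldoc at 1.13 in Pcbp1 hairpin libraries, and those of the CPX experiment reach 2.80 for Slc16a3 on the DMSO axis and -2.65 for Aldoc on the CPX axis.

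Levels per kb put Pkm at 735 RPM per kb in Pcbp1 hairpin cells and 486 in scrambled hairpin cells, the highest of the listed genes in both. Aldoa had 508 RPM per kb in Pcbp1 hairpin cells and 249 in scrambled hairpin cells, and Ldha had 358 and 383. Gapdh had 11.7 RPM per kb in Pcbp1 hairpin cells and 9.09 in scrambled hairpin cells, but 1797 with CPX and 1234 with DMSO, where it led the list. Pgk1 had 21.5 RPM per kb in Pcbp1 hairpin cells and 22.6 in scrambled hairpin cells, but 774 with CPX and 427 with DMSO. Many of these genes have processed pseudogenes, near-identical copies to which their reads can also map, and their levels and fold changes are uncertain to that extent. In GENCODE transcripts, Gapdh had 172 pseudogenes with at least 90% identity over at least 200 bases, Ldha 13, Pkm 8, Eno1 6, Aldoa 5, Pgk1 4, Pgam1 3, Tpi1 2, and Gpi1, Ldhb and Taldo1 1 each. The log2 level in scrambled hairpin libraries minus that in DMSO libraries had a median of -3.22 over the 7 genes with 3 or more such copies, of -1.004 over the 20 genes with none, and of -0.37 over all 10430 genes. Gapdh was at -7.00, but Hk1 (-4.07) has no such copy. These control libraries differ in RNA selection and transduction, and the part of the copies was not tested.

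Other genes around these pathways were taken from a list of 69, of which 48 were tested in the knockdown and 51 with CPX. In Pcbp1 hairpin cells 15 of the 48 rose and 14 fell (31.3% and 29.2%, against 29.3% and 26.7% of all tested genes). With CPX 5 of the 51 rose and 12 fell (9.80% and 23.5%, against 19.9% and 24.8% of all tested genes). Their median log2 fold changes were 0.07 in the knockdown and -0.09 with CPX. The genes with the smallest p in each direction were named.

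In the knockdown, Pfkfb3, the kinase that makes the activator of phosphofructokinase, had 53.9 and 50.1 RPM in Pcbp1 hairpin libraries, against 29.4 and 31.1 RPM in scrambled hairpin libraries (log2 0.67 ± 0.091, adjusted p = 5.73e-04, edgeR). Pgm2, a phosphoglucomutase, had 14.6 and 13.99 RPM in Pcbp1 hairpin libraries, against 7.48 and 7.82 RPM in scrambled hairpin libraries (adjusted p = 0.00170, edgeR). Both genes named among those that fell belong to branches that leave glycolysis, toward serine and toward amino sugars. Psph, the last enzyme of serine synthesis, had 25.4 and 24.9 RPM in Pcbp1 hairpin libraries, against 55.9 and 56.6 RPM in scrambled hairpin libraries (log2 -1.27 ± 0.086, adjusted p = 3.05e-05, edgeR). Gnpnat1, an acetyltransferase of amino sugar synthesis, had 42.7 and 45.8 RPM in Pcbp1 hairpin libraries, against 72.7 and 70.2 RPM in scrambled hairpin libraries (adjusted p = 1.32e-04, edgeR).

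Of these 51 genes, among those higher with CPX, the smallest p belonged to Gpd1 and Gpd2, the glycerol-3-phosphate dehydrogenases that pass electrons of cytosolic NADH to mitochondria. Gpd1, the cytosolic form, had 24.9 and 35.3 RPM with CPX, against 0.814 and 0.460 RPM with DMSO (log2 4.75 ± 0.36, adjusted p = 0.00241, limma). Gpd1 passed the filter on low values only through the CPX libraries, where it is high, so its p is no independent support. Gpd2, the mitochondrial form, had 86.6 and 75.3 RPM with CPX, against 25.1 and 22.5 RPM with DMSO (log2 1.74 ± 0.24, adjusted p = 0.00453, limma). Prps1, which makes the activated ribose for nucleotides, fell to 25.7 and 21.0 RPM with CPX, against 127 and 110.1 RPM with DMSO (log2 -2.32 ± 0.24, adjusted p = 0.00292, limma). G6pc3, a glucose-6-phosphatase, fell to 3.54 and 4.42 RPM with CPX, against 24.3 and 21.2 RPM with DMSO (log2 -2.38 ± 0.31, adjusted p = 0.00413, limma).

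The promoter letters were also counted by call. Of the genes that rose in the knockdown, 12 of 14 with a promoter held ACGTG or GCGTG, as did 3 of 4 that fell and 10 of 12 that were not called. With CPX, 1 of 3 that rose, 5 of 6 that fell and 19 of 21 that were not called held them. The share among all genes with values was 67.1%. Eno2, counted among those that rose with CPX, held neither and passed the filter on low values only through the CPX libraries. These counts are too small to compare the calls. Gpi1, which rose in both experiments, had neither in its promoter, and Rpe, which fell in both, had neither.

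The authors' deposited tables of their own comparisons were also read for these genes. In the authors' deposited table for the knockdown, 13 rose and 4 fell, and all 17 were called here in the same direction. Bpgm and Slc16a3 were called here alone. In the authors' deposited table for CPX, 8 rose and 5 fell, of which 4 and 5 were called here. Eno1, Hk3, Ldhb and Pgk1 rose in the authors' deposited table alone, and Tkt fell here alone.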

How the data were processed

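RNA-seq values of 8 mouse Th1 libraries were used, 2 per group. Per the submitters' processing notes, STAR, HTSeq, cutadapt and DESeq were used with the mm9 genome; no versions are given. In the deposited table of values per library, the 4 knockdown columns hold whole read counts per gene; the values of the 4 CPX and DMSO columns are whole but rescaled by the authors, so they were treated as a score (about 1.965 reads per unit, from their comparison with the authors' tables). The authors' deposited tables of comparisons give a mean normalized signal, a log2 fold change with its SE, and p-values per gene. The number of columns of other samples was 0.

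Of 33899 lines, 1 held the constant value 23487630 in every column, and labels after it were displaced. Lines with at least 10 in a library (14805) were matched to the authors' mean signals: 14455 matched 1 gene, 350 several and 0 none. The 350 were not used, and 25 names differ between the authors' tables. RPM used column totals. For the knockdown, edgeR 4.0.16 in R 4.3.3 was run on the deposited counts (TMM scaling, quasi-likelihood test). For CPX and for the difference, log2(RPM + 0.5) was fitted in limma 3.58.1 with a trend of the variance, and fold changes of low genes are understated on that scale. DESeq2 1.42.0, other scalings, filters, pseudocounts and the omission of each library were alternatives. Adjustment was Benjamini-Hochberg over all genes tested. The fits were tested on simulated data with 200 changed genes.

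Named were all listed genes that were called, or the best-expressed isoenzyme of a step, and of the other pathway genes the 2 with the smallest p per direction. No measured value was used to list the 32 genes. Earlier results of these data were, however, known when the genes, lists and tests were chosen. Lengths and GC content came from the longest coding transcript in GENCODE, promoters from RefSeq (GRCm38.p6). Coordinates on mm9 were not used here.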

Additional observations from a re-analysis of the deposited data

How the results depend on the processing

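In the knockdown, 13 to 15 of the listed genes rose and 2 to 4 fell when 1 library was left out, with 5518 to 5775 calls among all genes. Limma gave 2 that fell, and limma with length and GC trend taken out, an alternative chosen after seeing the data, gave 1 and turned Rpe to 0.083; it also split all calls into 3465 that rose and 1857 that fell (65.1% that rose, against 52.4%). With CPX, leaving out 1 library gave 2 to 7 that rose and 3 to 7 that fell, with 2535 to 5512 calls among all genes (2535 without the first DMSO library and 2785 without the second). One fit of all 8 libraries gave 8 that rose, with 7041 calls among all genes (5124 in the CPX and DMSO libraries alone). In the difference, 7 to 13 were higher and 1 to 5 lower, with 3880 to 6720 calls among all genes, and without the first DMSO library Tpi1 turned to 1.02 (adjusted p = 0.0270, limma), while without the second it was -1.60 (adjusted p = 0.00639). TMM scaling split the calls of the difference into 2851 higher and 2444 lower (53.8% higher, against 68.7%), and quantile normalization into 2782 and 2580. The cause of these changes was not tested, beyond the fewer samples in an omission.

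The replicate numbers were not taken as pairs, since there are only 2 pairs and no label says what the numbers mean. Across all tested genes, the correlation of replicate 2 minus replicate 1 was 0.29 in the knockdown and 0.10 in the CPX experiment. The listed genes shifted together more often with CPX and DMSO. Of the 31, 19 were higher in replicate 2 of both, against 34.3% of all tested genes. The summed CD8 T cell markers did split by replicate number, at 92.0 and 11.6 RPM in Pcbp1 hairpin and 90.5 and 11.9 RPM in scrambled hairpin libraries. The main fit of the knockdown did not take this into account. With the replicate number as a block, 16 rose and 5 fell in the knockdown (7348 calls among all genes). Gained there were Pgd at an adjusted p of 0.0431 and Tpi1, which fell, at 0.00841 (edgeR). With CPX 8 rose and 7 fell (5651 calls among all genes). Gained there were Eno1 at an adjusted p of 0.000952, Pgk1 at 0.00395, Gapdh at 0.0191, Ldhb at 0.0319 and Pfkl, which fell, at 0.0354 (limma). In the difference 12 were higher and 4 lower (5362 calls among all genes). Depth limits Hk3, Ldhb, Eno2, Eno3, Pfkm and Aldoc, which stayed under 4 RPM in the knockdown.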
